A study of Mus musculus with 24 samples.

Results

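The cardiac myosin motor and its closest partners were followed in the left ventricle of mice infused with angiotensin II (ANG II). The genes were Myh6 and Myh7, the fast alpha and slow beta myosin heavy chains of the heart, Myh7b, a further heavy chain of striated muscle, Myl2 and Myl3, the regulatory and essential light chains of the ventricle, Myl7 and Myl4, the matching light chains of the atrium, Mylk3, the cardiac myosin light chain kinase, and Mybpc3, cardiac myosin-binding protein C. They were chosen by symbol, and all 9 were among the 14912 genes of the expression table. The ANG II group held 12 male wild-type C57BL/6J mice given 1500 ng/kg/min of ANG II for 7 days from a subcutaneous osmotic pump, and the control group held 12 such mice given saline. The hearts were flushed with saline before the left ventricle was taken, and polyadenylated RNA was sequenced. The age of the mice was not given in the sources used here. The study looked for immune-related genes and candidate drugs in hypertrophy of the left ventricle under hypertension, and the comparison of ANG II with control asks which genes differ in it.

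A cardiac thick filament is built from myosin hexamers, each a pair of heavy chains that carry the motor and a regulatory and an essential light chain on the neck of each motor. The adult mouse ventricle runs mainly on the alpha heavy chain with the ventricular light chains, while the beta heavy chain dominates before birth and the atrial light chains belong to the atria and the embryonic ventricle. A return of beta heavy chain RNA in the pressure-loaded ventricle is a classical part of the fetal gene programme. Mylk3 phosphorylates the regulatory light chain, and myosin-binding protein C holds the motors in their resting position on the filament.

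Expression was given as FPKM, the fragments of a gene scaled by the length of its transcript and the mapped fragments of the sample, so that levels of different genes can be compared. The number of fragments per sample was not given, so the depth is unknown. The deposited values had been adjusted gene by gene in 4 sets of 3 mice per group, called here set A (samples 1 to 3), set B (4 to 6), set C (7 to 9) and set D (10 to 12), and 2741 values (0.766%) were negative. Summed over all genes, the FPKM of an ANG II sample lay between 460715 and 515185 and that of a control sample between 482319 and 567727. Replicates were separate mice. The tissue label was checked against markers: the 10 cardiomyocyte genes summed to between 33331 and 46382 FPKM under ANG II and between 42338 and 57235 FPKM in control samples, and 8 skeletal muscle markers summed to at most 48.5 FPKM in any sample. For 6 of the 9 genes (Myh7, Myh7b, Myl3, Myl4, Myl7 and Mylk3), the spacing of the values allowed the scaling of each set to be undone. This gave each sample's FPKM above the lowest sample of its set before the adjustment, but not the level of that lowest sample.

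The heavy chain genes carry microRNAs in their introns, in the orientation of the host. The mature sequences are shown because they tie the 3 heavy chain genes together by a feature that the choice of genes did not use. Capitals mark the seed, bases 2 to 8 from the 5′ end, and the sequences and positions are those of RefSeq on GRCm38.p6.
mmu-miR-208a-3p (in Myh6, chr14:54949072-54949093, minus strand): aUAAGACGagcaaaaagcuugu
mmu-miR-208b-3p (in Myh7, chr14:54975710-54975731, minus strand): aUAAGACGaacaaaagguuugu
mmu-miR-499-5p (in Myh7b, chr2:155622893-155622913, plus strand): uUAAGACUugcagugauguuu
The miRNAs of Myh6 and Myh7 share the seed UAAGACG, and that of Myh7b has the seed UAAGACU. The libraries were made from polyadenylated RNA, and the miRNAs themselves were not analysed here.

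Myh6 (ENSMUSG00000040752) lies on chromosome 14 from 54941921 to 54966927 and Myh7 (ENSMUSG00000053093) from 54970684 to 54994626, both on the minus strand of GRCm38 in GENCODE vM21, with 3756 bases between them. The pair is so alike that, of the 6181 windows of 50 bases in the longest principal transcript of Myh7, 22.2% occurred unchanged in that of Myh6, so reads from these stretches can be split between the 2 genes. Myh7b (ENSMUSG00000074652, chr2:155611212-155634307, plus strand) shared 0 windows with either. Myh7 also overlaps antisense genes, among them Mhrt over 3666 bases. Whether the counting used strand was not given in the sources used here, and without strand the reads of such partners cannot be told apart. The 250 bases before the start of Myh7, the gene with the greatest change, are shown with the only match to the motifs searched in capitals (RefSeq, GRCm38.p6, chr14:54994627-54994876, minus strand).
Myh7 upstream: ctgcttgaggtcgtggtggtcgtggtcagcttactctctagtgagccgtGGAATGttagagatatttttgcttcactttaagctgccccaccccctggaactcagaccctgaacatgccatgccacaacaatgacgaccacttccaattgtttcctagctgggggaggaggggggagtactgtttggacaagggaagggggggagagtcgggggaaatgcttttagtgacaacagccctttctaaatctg
The match is the M-CAT word CATTCC on the opposite strand, 201 bases before the start. On either strand, CATTCC occurred in 12.6% of 32851 promoter entries of this length and the TATA box word TATAAA, which was also searched, in 12.4%. A match of letters is a description only.

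Myl2 was the most abundant of the genes, with a mean of 11342 FPKM over the 24 samples, which placed it at rank 2 of all genes in the table. Myh6 followed with 7337 FPKM and Myl3 with 6249 FPKM. Myl2 stood above Myh6 in 23 of 24 samples and Myh6 above Myl3 in 22 of 24. Mybpc3, at 997 FPKM, lay below Myl3 and above Myh7 in each of the 24 samples. Below them, Myh7 had a mean of 249 FPKM and Mylk3 of 172 FPKM, and their order went with the group, since Myh7 was above Mylk3 in 12 of 12 ANG II samples and in 0 of 12 control samples. Myl7 (180 FPKM) and Myl4 (179 FPKM) owed much of their means to control sample 2 and ANG II sample 6, without which the means were 83.2 and 94.1 FPKM. All these means and orders, that of Myh7 and Mylk3 included, are of deposited levels, and the levels before the adjustment are not known. Myh7b was the lowest at 18.2 FPKM.

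ANG II was compared with control by limma on log2(FPKM + 1) with negative values set to 0, over 14026 genes with a mean of at least 0.1 FPKM and with Benjamini-Hochberg adjustment over all of them. Fold changes are on this log2(FPKM + 1) scale, which understates the change of low genes. Of the 9 genes, Myh7 and Mybpc3 rose and Myl2, Myl3 and Mylk3 fell at an adjusted p under 0.05, while Myh6, Myh7b, Myl4 and Myl7 did not pass. Of all genes tested, 20.9% rose and 12.6% fell (33.5% in either direction), and the 5 of 9 genes are to be read against these shares. The median log2 fold change of the 9 genes was 0.01, against 0.05 over all genes. With an absolute log2 fold change over 0.5 as well, which 5.92% of all genes reached, Myh7 remained among those higher (4.52% of all genes) and Myl2 among those lower (1.4%).

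**Figure D1:**
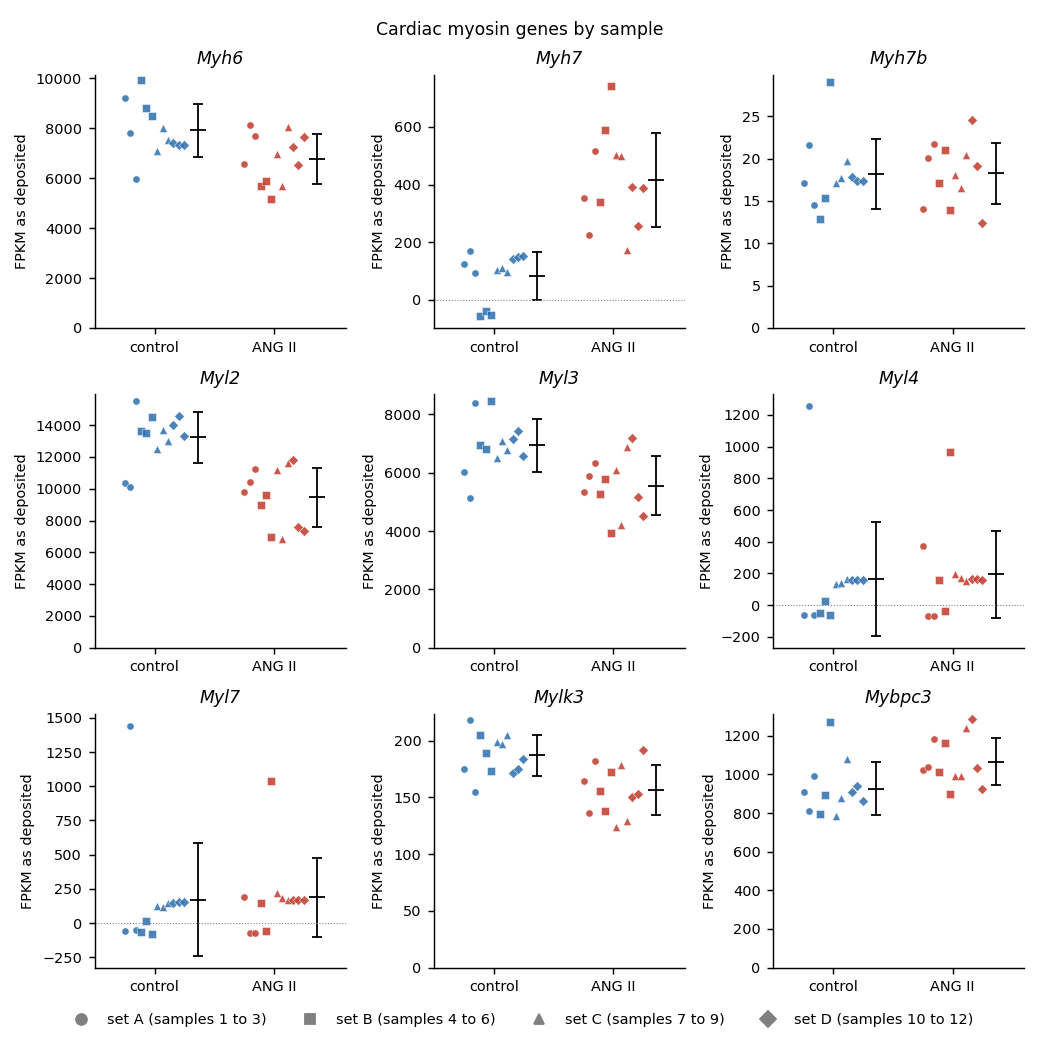
Deposited FPKM of the 9 genes (y axes, linear) in the 12 control and 12 ANG II samples, with the mean ± SD beside each group and a marker shape for each set of samples. Every ANG II sample of Myh7 is above every control sample, Myl2 and Myl3 are lower under ANG II, and Myl4 and Myl7 have their highest values in a few samples, with the values of sets C and D close together in both groups.

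Myh7, the beta heavy chain, rose in the ANG II group. The deposited values of the ANG II samples 1 to 12 were 354, 227, 516, 340, 588, 741, 503, 498, 173, 391, 255 and 389 FPKM. Those of the control samples were 126, 168, 93.6, -57.4, -37.6, -52.1, 102, 111, 97.9, 143, 148 and 152 FPKM. The lowest ANG II sample (sample 9) lay just above the highest control sample (sample 2), and the groups did not overlap, as was the case for 0.271% of the genes tested in this direction. The means were 415 ± 163 (SD, n = 12) and 83.0 ± 83.0 FPKM (SD, n = 12). The log2 fold change was 3.36 ± 0.87 (SE; limma, adjusted p = 0.00464).

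The size of this change depended on the control samples of set B, whose 3 negative values entered the logarithm as 0. Within the sets, the log2 fold change of Myh7 was 1.46 (A), 9.05 (B), 1.75 (C) and 1.19 (D), where the value of set B is taken against values set to 0 and depends on the 1 added before the logarithm. Without set B it was 1.47 ± 0.19 (SE; limma, adjusted p = 1.3e-04). The level of the lowest sample of each set before the adjustment is not known. All these fold changes therefore hold for the deposited values only. The limma F-test of group by set passed for the deposited values (F = 120, adjusted p = 1.1e-09), as it did for 7.49% of all genes. Without set B it did not (F = 0.65, adjusted p = 0.925). That refit left out the ANG II samples of set B too, so the part of the 3 negative control values in the F was not tested. No test of a difference between sets was made with the scaling undone. Among the other 8 genes, none passed the limma F-test of group by set, the lowest adjusted p being 0.180 for Myh6, whose unadjusted p was 0.0407.

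With the scaling of each set undone, Myh7 separated the groups in each of the 4 sets. In set A, the ANG II samples stood 237, 91.2 and 424 FPKM above the lowest sample of the set, and the control samples 36.8, 85.5 and 0 FPKM. In set B, the ANG II samples stood at 396, 669 and 838 FPKM and the control samples at 0, 21.8 and 5.79 FPKM. In set C, the ANG II samples stood at 407, 404 and 181 FPKM and the control samples at 2.77, 9.07 and 0 FPKM. Set D had the narrowest ANG II range, with ANG II samples at 273, 159 and 271 FPKM and control samples at 0, 4.25 and 7.66 FPKM. The control mice differed from each other by at most 21.8 FPKM in sets B, C and D and by 85.5 FPKM in set A, where the lowest ANG II sample lay just above them. Such a separation in every set was found for 0.324% of the 13581 genes whose scaling was undone. The mean difference was 348 FPKM after the scaling was undone and 332 FPKM as deposited, and both had p = 1.25e-05 in the exact permutation test with labels exchanged within sets (two-sided), the smallest p that its 160000 relabelings can give. A p under 0.05 in this test was reached by 40.9% of all genes as deposited and by 41.6% with the scaling undone, and an adjusted p under 0.05 by 27.4% and 28.2%. Adjusted over all genes with the scaling undone, the p of Myh7 was 0.00162 (exact permutation test).

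**Figure D2:**
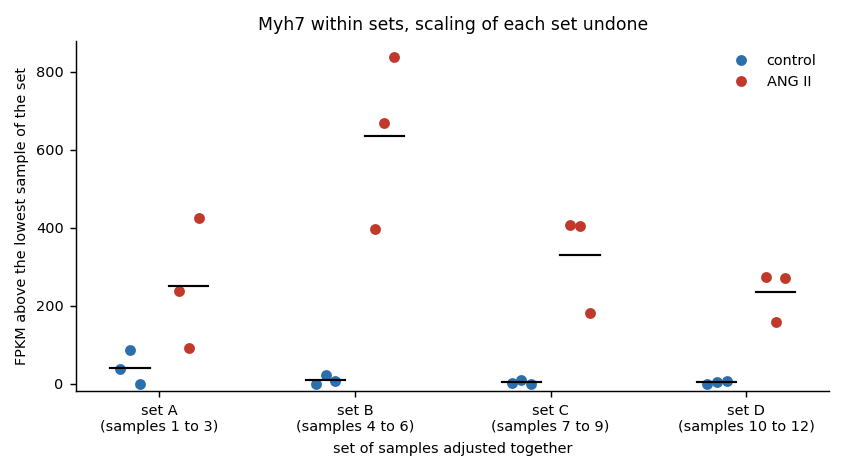
Myh7 after the scaling of each set was undone, as FPKM above the lowest sample of its set (y axis, linear), for the 3 control and 3 ANG II samples of each of the 4 sets (x axis). Bars mark group means; the ANG II samples lie above the control samples in every set, and the difference of means is greatest in set B (625 FPKM) and least in set A (210 FPKM).

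Myh6, the alpha heavy chain, was lower on average in the ANG II group but did not pass the test over all genes. Its ANG II samples had 6571, 8132, 7684, 5670, 5896, 5145, 6980, 5666, 8061, 7250, 6531 and 7639 FPKM, and its control samples 9217, 7787, 5958, 9907, 8825, 8503, 7068, 8009, 7539, 7401, 7337 and 7318 FPKM. The groups overlapped widely, and 9 of 12 ANG II samples lay below the control median. The means were 6769 ± 1014 and 7906 ± 1066 FPKM (SD, n = 12 each), a log2 fold change of -0.23 ± 0.09 (SE; limma, adjusted p = 0.0648). The ANG II mean was lower in all 4 sets, with differences of -192, -3508, -636 and -212 FPKM in sets A to D. The exact permutation test within sets gave p = 0.0227 (two-sided) for the difference of -1137 FPKM, or 0.0705 adjusted over all genes. Without set B it gave p = 0.419 for -347 FPKM. limma called the change when genes with a mean under 1 FPKM were left out (adjusted p = 0.0433), and its sign turned with quantile normalization (0.073).

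Myh7 made up a small share of the Myh6 and Myh7 FPKM in every sample. The share was 5.11, 2.71, 6.30, 5.67, 9.07, 12.6, 6.72, 8.08, 2.10, 5.12, 3.76 and 4.84% in the ANG II samples. In the control samples it was 1.34, 2.11, 1.55, 0, 0, 0, 1.42, 1.37, 1.28, 1.90, 1.98 and 2.04%, where the zeros are the negative values of set B. The means were 6.01 ± 2.89% and 1.25 ± 0.807% (SD, n = 12 each). With the 3 control samples of negative value left out, the control mean was 1.67 ± 0.337% (SD, n = 9). The lowest ANG II share, of sample 9, was just under the highest control share, of sample 2. As the 2 genes share sequence and their set offsets are unknown, these shares are a description, without a test.

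**Figure D3:**
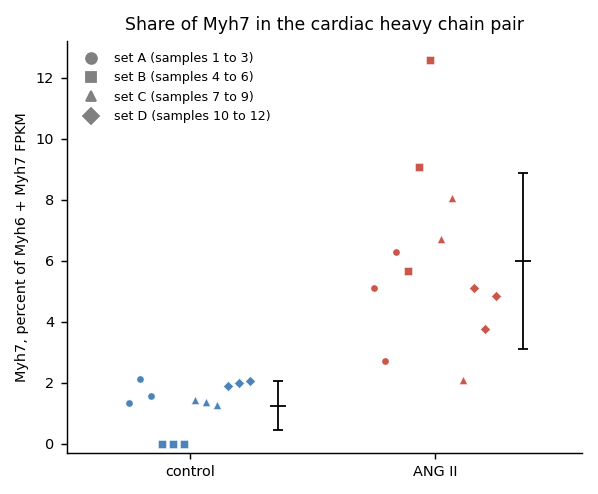
Myh7 as a percentage of Myh6 + Myh7 FPKM (y axis, linear) in each control and ANG II sample, with the mean ± SD of each group and a marker shape for each set. The ANG II samples range from 2.10 to 12.6% and the control samples from 0 to 2.11%, the zeros being negative deposited values set to 0.

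Myh7b did not differ beyond the spread between mice. It ranged from 12.4 to 24.5 FPKM in the ANG II group (median 18.6) and from 12.9 to 29.1 FPKM in the control group (median 17.4). The log2 fold change was 0.01 ± 0.11 (SE; limma, adjusted p = 0.952), and the exact permutation test within sets gave p = 0.954 (two-sided). The sign of this small difference turned with median-ratio scaling and with quantile normalization.

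The ventricular light chains fell. Myl2 (ENSMUSG00000013936, chr5:122100951-122113472, plus strand) encodes the regulatory light chain. Its ANG II samples had 9776, 10405, 11259, 9004, 9606, 6980, 11154, 6825, 11639, 11807, 7595 and 7373 FPKM. Its control samples had 10391, 10081, 15504, 13640, 13536, 14512, 12514, 13692, 13030, 14000, 14573 and 13306 FPKM. All 12 ANG II samples lay below the control median and 7 lay below the lowest control sample, and only control samples 1 and 2 reached into the ANG II range. The means were 9452 ± 1871 and 13232 ± 1602 FPKM (SD, n = 12 each), a ratio of 0.714 and a log2 fold change of -0.50 ± 0.11 (SE; limma, adjusted p = 0.00141). The ANG II mean was lower in all 4 sets, with differences of -1512, -5366, -3206 and -5035 FPKM in sets A to D. In 3 of the 4 sets every ANG II sample lay below every control sample. The share of all genes with such a separation in 3 sets was not counted. The exact permutation test within sets gave p = 1.125e-04 (two-sided).

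Myl3 (ENSMUSG00000059741, chr9:110741861-110769798, plus strand), the essential light chain of the ventricle, ranged from 3945 to 7201 FPKM in the ANG II group (median 5575) and from 5131 to 8458 FPKM in the control group (median 6892). The groups overlapped, with 11 of 12 ANG II samples below the control median. The means were 5555 ± 1012 and 6943 ± 910 FPKM (SD, n = 12 each), a log2 fold change of -0.33 ± 0.10 (SE; limma, adjusted p = 0.0145). With the scaling undone, the mean difference was -1356 FPKM (exact permutation test within sets, two-sided, p = 0.0115). Every ANG II sample then lay below every control sample in 2 of 4 sets, against 1 of 4 as deposited. How many of all genes were separated in 2 sets was not counted. Myl3 no longer passed without set B (-0.25; limma, adjusted p = 0.148) or without set D (-0.33; limma, adjusted p = 0.0589).

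Mylk3 (ENSMUSG00000031698, chr8:85324303-85386345, minus strand), the kinase that phosphorylates the Myl2 protein, fell as well. Its ANG II samples ranged from 124 to 192 FPKM (median 154) and its control samples from 155 to 219 FPKM (median 186), and 6 ANG II samples lay below the lowest control sample. The means were 156 ± 22.1 and 187 ± 18.3 FPKM (SD, n = 12 each), with a log2 fold change of -0.26 ± 0.07 (SE; limma, adjusted p = 0.00539). With the scaling undone, the ANG II samples 7, 8 and 9 stood 0, 35.1 and 3.42 FPKM above the lowest of their set and the control samples 65.5, 64.1 and 69.2 FPKM. The groups were separated in set B too, with ANG II samples at 13.9, 0 and 28.0 FPKM and control samples at 63.5, 50.3 and 37.6 FPKM, and they overlapped in the other 2 sets. The share of all genes separated in 2 sets was not counted. The mean difference was -28.9 FPKM (exact permutation test within sets, two-sided, p = 0.00833). Without set C, the log2 fold change of Mylk3 was -0.19 (limma, adjusted p = 0.0603).

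Other cardiomyocyte genes moved with these falls. Of the 10 cardiomyocyte markers, 6 fell and 0 rose, where 12.6% of all genes fell and 20.9% rose, with a median log2 fold change of -0.31 against 0.05 over all genes, and their summed FPKM had a median of 39122 in the ANG II group and 50577 in the control group. Tnni3, cardiac troponin I, fell by 0.63 on the log2 scale (limma, adjusted p = 8.1e-06) and Mb, myoglobin, by 0.59 (limma, adjusted p = 2.4e-04), while Tnnt2, cardiac troponin T, had a change of -0.07 (limma, adjusted p = 0.402). All 5 macrophage markers and 2 of 5 fibroblast markers rose, and 0 of either list fell, against the same shares of all genes. In bulk tissue, fewer cardiomyocytes and less RNA per cardiomyocyte cannot be told apart, and the part of cell composition in the light chain falls was not tested. With quantile normalization, which gives each rank within a sample the same value in all samples, the changes of Myl2 (-0.044, adjusted p = 0.600) and Myl3 (-0.12, adjusted p = 0.104) did not pass in limma, while those of Mylk3 (-0.26, adjusted p = 0.0110) and Mybpc3 (0.38, adjusted p = 6.6e-05) did. By mean, Myl2, Myh6 and Myl3 ranked 2, 5 and 6 of all genes. A gene that keeps its rank in every sample shows no change in this setting, so it cannot decide whether these 3 genes fell.

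Mybpc3 (ENSMUSG00000002100, chr2:91118144-91136516, plus strand) rose slightly. It ranged from 897 to 1287 FPKM in the ANG II group (median 1028) and from 784 to 1272 FPKM in the control group (median 902), and 11 of 12 ANG II samples lay above the control median. The means were 1066 ± 123 and 927 ± 137 FPKM (SD, n = 12 each), with a log2 fold change of 0.21 ± 0.07 (SE; limma, adjusted p = 0.0361). The difference was 176, 38.2, 161 and 179 FPKM in the 4 sets, and the highest control value was that of sample 6. The exact permutation test within sets gave p = 0.0261 (two-sided; 0.0777 adjusted over all genes). Mybpc3 did not pass with the set as a term (limma, adjusted p = 0.0592), with median-ratio scaling (0.16; limma, adjusted p = 0.212), or without set A, C or D (limma, adjusted p from 0.0990 to 0.136).

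**Figure D4:**
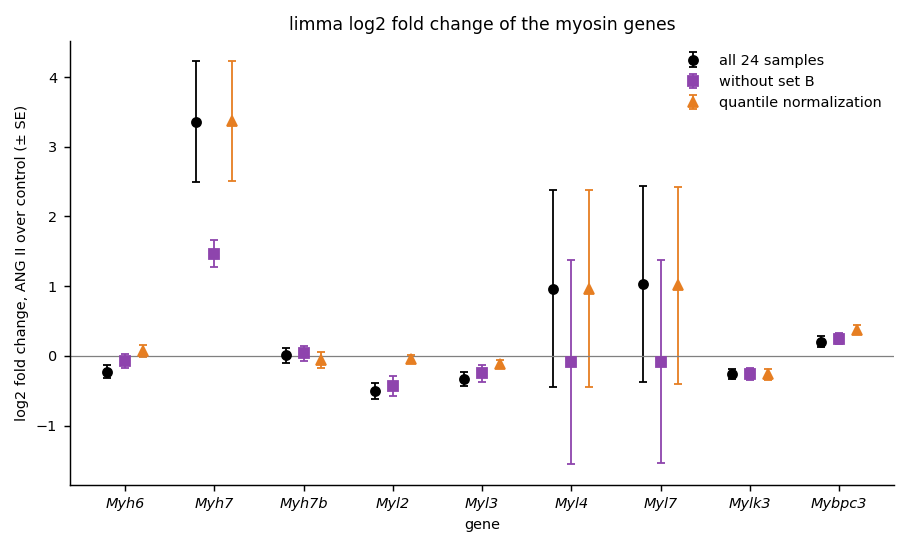
limma log2 fold change of ANG II over control (y axis, ± SE) for the 9 genes with all 24 samples, without set B, and with quantile normalization. Myh7 is above 0 in the 3 fits and is smaller without set B, Myl2 and Myl3 are near 0 with quantile normalization, and Myl4 and Myl7 have wide errors.

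The atrial light chains had their highest values in a few libraries of both groups. As deposited, Myl7 (ENSMUSG00000020469, chr11:5896637-5898782, minus strand) ranged from -74.3 to 1040 FPKM in the ANG II group (median 171) and from -75.4 to 1443 FPKM in the control group (median 121). Myl4 (ENSMUSG00000061086, chr11:104550663-104595753, plus strand) ranged from -68.4 to 967 FPKM (median 163) and from -63.9 to 1257 FPKM (median 135). Of the 24 samples, 7 were negative for each gene. The log2 fold changes were 1.03 ± 1.40 for Myl7 (SE; limma, adjusted p = 0.593) and 0.96 ± 1.41 for Myl4 (SE; limma, adjusted p = 0.618). The exact permutation test within sets gave p = 0.873 for Myl7 and p = 0.721 for Myl4 (two-sided). The sign of both differences turned without set B (log2 fold changes of -0.085 and -0.092) and with the scaling undone (-76.0 and -30.2 FPKM).

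With the scaling undone, control sample 2 stood 2625 FPKM above the lowest sample of its set in Myl7, ANG II sample 6 stood at 1097 FPKM, ANG II sample 1 at 461 FPKM, ANG II sample 4 at 216 FPKM and control sample 5 at 90.1 FPKM. The remaining samples stood at most 32.8 FPKM above the lowest of their set. In set D the 6 mice differed by at most 1.70 FPKM, although their deposited values lay between 150 and 172 FPKM. The level that these mice share is not known, since the offset of a set was not recovered. The same holds for Myl4, which spanned 2.57 FPKM in set D with deposited values between 157 and 165 FPKM. Myl4 followed the same libraries, with 2321 FPKM in control sample 2, 1012 in ANG II sample 6, 772 in ANG II sample 1, 219 in ANG II sample 4 and 88.3 in control sample 5.

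Markers of atrial myocytes moved with the atrial light chains. Sln, sarcolipin, an atrial inhibitor of the calcium pump, stood 842 FPKM above the lowest of its set in control sample 2, 291 in ANG II sample 6, 165 in ANG II sample 1 and 61.2 in ANG II sample 4. Of the 8 atrial markers measured, 7 were highest in control sample 2 in set A and 7 were highest in ANG II sample 6 in set B. Kcna5 was the exception in both sets, with its lowest value in those 2 libraries. The summed FPKM of the list lay between 42.2 and 516 under ANG II and between 48.5 and 770 in control samples. Of these markers, Kcnj3 fell by 0.50 on the log2 scale (limma, adjusted p = 0.0402) and the other 7 did not pass. Whether atrial tissue was included in these libraries was not tested. Leaving out ANG II sample 6 and control sample 2, or also ANG II samples 1 and 4, settings chosen after the data were seen, left each of the 5 calls among the 9 genes in place, with log2 fold changes of -0.50 and -0.49 for Myl2 and 3.47 and 3.49 for Myh7.

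**Figure D5:**
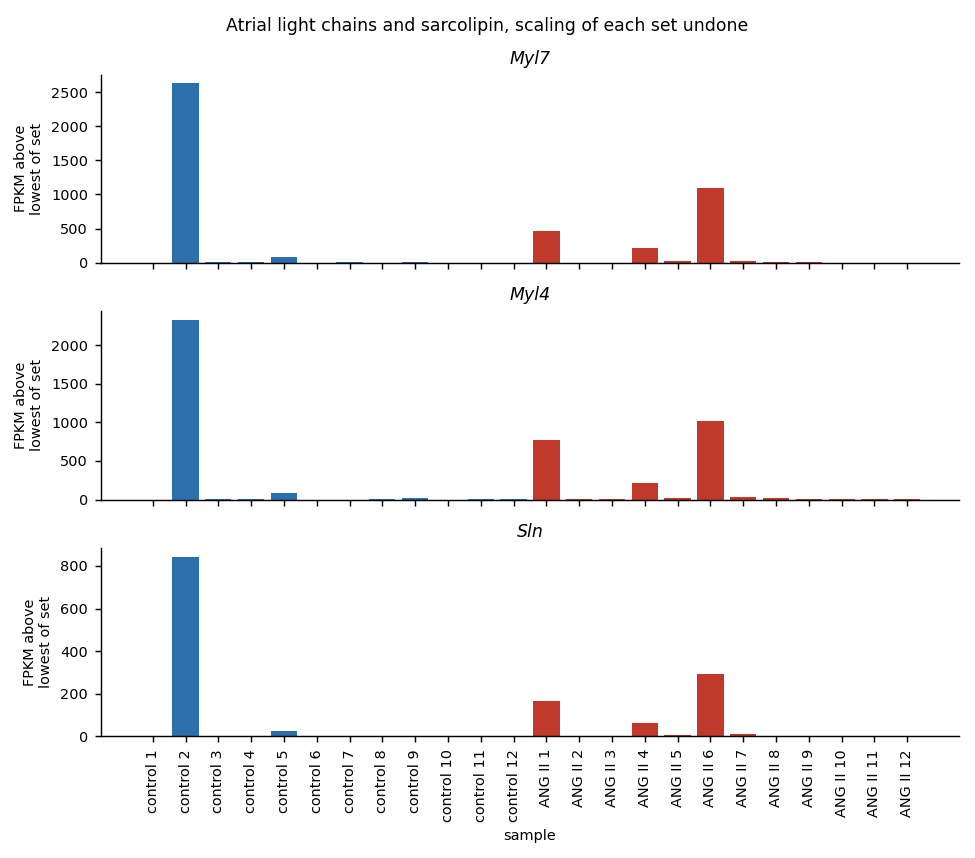
Myl7, Myl4 and Sln after the scaling of each set was undone, as FPKM above the lowest sample of the set (y axes, linear from 0), for each of the 24 samples (x axis; control in blue, ANG II in red). The same libraries are high in the 3 genes: control sample 2, ANG II sample 6, ANG II sample 1 and ANG II sample 4, with Myl7 at 2625, 1097, 461 and 216 FPKM.

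As shares of the light chain pairs, Myl7 made up 2.36 ± 3.46% of Myl2 + Myl7 FPKM in the ANG II group and 1.57 ± 3.49% in the control group (SD, n = 12 each). Myl4 made up 3.93 ± 5.30% of Myl3 + Myl4 FPKM in the ANG II group and 2.75 ± 5.43% in the control group (SD, n = 12 each). The highest shares were those of ANG II sample 6 (13.0% of Myl7 and 19.7% of Myl4) and control sample 2 (12.5% and 19.7%). The SD exceeded the mean in both groups, and no test was made. Negative deposited values entered these shares as 0, in 7 samples for each gene. The offset of each set is unknown, so the shares describe deposited levels only. The difference of ANG II minus control was 0.791 percentage points for Myl7 and 1.18 for Myl4. Without set B these differences turned to -0.549 and -0.896, and without set A, C or D they kept their sign.

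Genes were ranked by how closely their values followed the members from mouse to mouse, among 11347 genes (11346 for Myh6). The measure was Spearman's rho over the 24 samples, after the mean of each group in each set was removed. Genes with a mean under 1 FPKM or with negative values in more than 1 sample were not ranked. This left out Myl4, Myl7 and Sln (7 negative values each), Myh7 (3) and Dkk3 (2), so the lists do not show how closely these genes follow each other. The 5 highest of the ranked genes were as follows. For Myl7 they were Stard10 (0.90), Slc22a17 (0.88), Ece1 (0.83), Tcaf1 (0.82) and Sfrp5 (0.82), and for Myl4 Stard10 (0.88), Slc22a17 (0.87), Ece1 (0.83), Spon1 (0.83) and Tcaf1 (0.83). Stard10 is in the atrial marker list. For Myh6 they included Hrc (0.86), a calcium-binding protein of the sarcoplasmic reticulum, Dvl3 (0.84), Tacc2 (0.81) and Iars (0.77). For Myh7 the values were lower, with Wbp2 (0.72), Taf1a (0.69), Ccdc191 (0.68), Sbsn (0.67) and Zcchc7 (0.67). These correlations are a description, since the mice of a set share their adjustment. The rho that the highest of so many genes would reach by chance was not estimated. With only the group means removed, 0 of the 5 genes remained among the highest 5 for Myh7, Myl4 and Myl7, and 2 of 5 for Myh6.

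The other genes of the myosin system were read from 4 lists, whose counts are to be set against the 20.9% of all genes that rose, the 12.6% that fell and the median log2 fold change of 0.05 over all genes. Of 17 partners of the thick filament, 16 were tested, of which 2 rose and 1 fell, a smaller share than the 33.5% of all genes called, with a median log2 fold change of -0.0018. Mybpc2, the fast skeletal form of myosin-binding protein C, rose from 9.15 ± 4.92 to 22.1 ± 6.27 FPKM (SD, n = 12 each), with a log2 fold change of 1.35 ± 0.27 (SE; limma, adjusted p = 5.1e-04). Myom1, myomesin of the M-band, rose from 395 ± 47.5 to 478 ± 46.4 FPKM (SD, n = 12 each), a log2 fold change of 0.28 (limma, adjusted p = 0.00277). Unc45b, a chaperone that folds the myosin head, fell from 67.7 ± 7.39 to 56.2 ± 6.59 FPKM (SD, n = 12 each), a log2 fold change of -0.26 (limma, adjusted p = 0.00269). Titin (Ttn) had a log2 fold change of 0.11 and did not pass (limma, adjusted p = 0.244).

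Of the 9 sarcomeric myosins of skeletal muscle listed, Myl1 and Mylpf were tested. Myl1, a fast skeletal essential light chain, rose from 43.8 ± 21.9 to 76.3 ± 32.9 FPKM (SD, n = 12 each; log2 fold change 0.81 ± 0.24 (SE), limma, adjusted p = 0.0127). Mylpf, the fast skeletal regulatory light chain, fell from 1.36 ± 0.259 to 1.04 ± 0.300 FPKM (SD, n = 12 each; log2 fold change -0.22, limma, adjusted p = 0.0282). Of the 8 skeletal muscle markers, 2 rose and 2 fell, where 20.9% and 12.6% of all genes did.

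Of the 9 smooth muscle and non-muscle myosins, 3 rose and 0 fell, where 20.9% of all genes rose and 12.6% fell, with a median log2 fold change of 0.23 against 0.05 over all genes. Myl6, the essential light chain of non-muscle and smooth muscle myosin, rose from 155 ± 27.6 to 230 ± 50.1 FPKM (SD, n = 12 each; log2 fold change 0.55 ± 0.11 (SE), limma, adjusted p = 5.2e-04). The non-muscle heavy chains Myh9 and Myh10 rose by 0.25 and 0.23 (limma, adjusted p = 0.00989 and 0.0319), and Myh11, the smooth muscle heavy chain, had a log2 fold change of 0.22 that did not pass (limma, adjusted p = 0.323).

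Of the 7 other kinases and phosphatase subunits acting on light chains, 3 rose and 2 fell, where 20.9% of all genes rose and 12.6% fell. Mylk4, a relative of Mylk3, had the greatest change of the list and fell from 53.6 ± 11.4 to 28.6 ± 8.52 FPKM (SD, n = 12 each), a log2 fold change of -0.92 ± 0.15 (SE; limma, adjusted p = 6.2e-05). Its exact permutation test within sets gave p = 5e-05 (two-sided). Ppp1r12b, a targeting subunit of myosin phosphatase, fell by 0.15 on the log2 scale (limma, adjusted p = 0.0310), whereas its relatives Ppp1r12a and Ppp1r12c rose by 0.21 and 0.15 (limma, adjusted p = 0.0136 and 0.0156). Mylk2, the skeletal light chain kinase, rose by 0.23 (limma, adjusted p = 0.0177) at levels of 0.403 ± 0.199 against 0.195 ± 0.147 FPKM (SD, n = 12 each).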

How the data were processed

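FPKM per gene and sample were deposited by the authors, whose processing notes name HISAT, Bowtie2 and RSEM; versions and genome build are not given in the sources used here. The paper used more mice per group; those beyond the 12 per group here were not analysed. Exact ties between samples (215 to 541 genes within a set, 0 between sets) showed that the deposited FPKM had been shifted and scaled gene by gene in 4 sets, a step the methods do not name. Steps of 0.01 FPKM were used to undo the scaling (13581 of 14026 genes), under the assumption that 1 group difference per gene had been kept aside; tests on deposited values do not account for such a use of the groups. The extraction text of the labels names CRC cells, so cardiac markers were checked.

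limma 3.58.1 (R 4.3.3) with an intensity trend was run on log2(FPKM + 1), with exact permutation tests in Python 3.11.15 (numpy 2.4.6, scipy 1.17.1). Scripts were tested on simulated data. Members and lists were chosen with earlier results of these data known. Named genes were the members, up to 3 rising and 3 falling genes per myosin list, and the 5 most alike by Spearman's rho for Myh6, Myh7, Myl4 and Myl7, of which 1 for Myh6 is not reported here; Tnni3, Mb, Tnnt2, Sln, Kcna5, Kcnj3, Ttn and Myh11 were named after their values were seen. Alternatives were the value added, filters, scaling, trend, replicate block, set term, leaving out sets, a Wilcoxon rank-sum test and the libraries high in atrial genes.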

Additional observations from a re-analysis of the deposited data

Results flagged for a closer look

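The limma F-test of group by set passed for Myh7 (F = 120, adjusted p = 1.1e-09). With the scaling undone, the difference of means was 210, 625, 327 and 230 FPKM in sets A, B, C and D. The 3 control values of set B were negative as deposited and entered as 0, and without that set F was 0.65 (adjusted p = 0.925). Leaving out set B removed its ANG II samples too, so the part of the values set to 0 was not tested. As it includes values set to 0, this F does not by itself show a difference between sets. No difference between sets was tested with the scaling undone.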

How the results depend on the processing

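Of 135 refits of the log2 fold changes of the 9 genes, 114 kept the direction and the side of the threshold. Myh7, Myl2 and Mylk3 kept their direction in every refit, as did Myl3 and Mybpc3. The cause of each change below was not tested. The count of 4697 genes called fell to 2824 with the replicate number as a block (replicate block), under which Myl3 (-0.33, adjusted p = 0.0616) and Mybpc3 (0.21, adjusted p = 0.0723) no longer passed, and no other call among the 9 genes changed. The numbers do not pair the mice: same-numbered samples correlated from -0.557 to -0.001 in their deviations, and 0 of 12 pairs were over 0.1. With the set as a term Mybpc3 did not pass (0.21, adjusted p = 0.0592), nor with median-ratio scaling (0.16). Quantile normalization ended the calls of Myl2 (-0.044) and Myl3 (-0.12) and turned Myh6 (0.073) and Myh7b (-0.054). Myl2, Myh6 and Myl3 are among the highest genes, and a gene that keeps its rank shows no change in this setting. The same normalization gave 534 genes in place of 1050 for the difference between sets. It called 1922 higher and 2930 lower genes against 2928 and 1769. Median-ratio scaling turned Myh7b (-0.036) and gave 2394 higher and 2235 lower genes. Myh6 passed with a mean of at least 1 FPKM or without the trend (-0.23 in both; adjusted p = 0.0433 and 0.0369). With 0.1 added before the logarithm, 1489 in place of 831 genes also had an absolute log2 fold change over 0.5. A Wilcoxon rank-sum test called 4125 genes and the same 5 of the 9.

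Leaving out each set, or the libraries high in atrial genes, gave 2810 to 4550 genes called (2810 without set B) and 553 to 1162 with the fold change threshold. The difference between sets was called for 3 to 1634 genes, with 3 without set B. The log2 fold changes ranged from 1.47 to 4.09 for Myh7, -0.30 to -0.068 for Myh6 (passing without set A), -0.0063 to 0.12 for Myh7b, -0.61 to -0.43 for Myl2, -0.40 to -0.25 for Myl3 (not passing without set B or D), -0.32 to -0.19 for Mylk3 (not without set C), 0.19 to 0.25 for Mybpc3 (not without set A, C or D), -0.092 to 1.48 for Myl4 and -0.085 to 1.70 for Myl7, the last 2 turning without set B. The differences tested within sets ranged from -1452 to -347 FPKM for Myh6, -0.249 to 0.709 for Myh7b, -1632 to -1047 for Myl3 (p = 0.0548 without set B, exact permutation test), -88.0 to 142 for Myl4, -118 to 166 for Myl7 (p = 0.0178 without set A, exact permutation test) and 125 to 172 for Mybpc3. With the scaling undone, the differences of Myh7b, Myl4 and Myl7 were -0.865, -30.2 and -76.0 FPKM, of opposite sign to those as deposited. For Myl7, the differences in sets B, C and D were 418, 59.7 and 20.6 FPKM as deposited. With the scaling undone they were 410, 9.63 and -0.66 FPKM. The test of Myl7 without set A used deposited values and was not repeated with the scaling undone.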
